A study of Mus musculus with 24 samples.

Results

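A set of 7 heat shock and chaperone genes were examined for binding of 3 pausing and elongation factors in mouse embryonic stem cells: Hspa8, Hspa1a, Hspa1b, Hsp90ab1, Hsp90aa1, Hspd1 and Hspe1. They were taken by position, as all regions of the authors' peak lists that overlap 6 windows of the mm10 genome of 10 to 22 kb each, with Hspd1 and Hspe1 in 1 window. The windows held 113 of the 1811308 regions in the 6 lists, and 51 of these had a deposited q-value (false discovery rate) of at most 0.01 and are called strong regions in what follows. The file headers say that q was not calculated, yet the column holds values, which were used as deposited and on which every count of strong regions and every covered length rests.

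The study used chromatin immunoprecipitation followed by sequencing (ChIP-seq) in E14 cells, an established mouse embryonic stem cell line. It asked how pausing of RNA polymerase II bears on transitions between pluripotent states. The cells of the 6 libraries analysed were kept in medium with serum and LIF. Every group carried the genotype labelled "Nelfb deg", and the 6 libraries analysed were labelled as the control treatment, where the medium of the series received either DMSO or dTAG-13, the small molecule that triggers loss of the tagged protein. The groups were NELFB:HA, precipitated through the HA tag of NELFB, NELFE and SPT5, with 2 libraries each. The other 18 of 24 samples were not analysed here. Among them are the 7 given 500 nM dTAG-13 for 30 min and samples titled naive, EpiLC or 2i. No label says that same-antibody libraries came from separate cultures, so the spread between them may be technical.

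NELF, of which NELFB and NELFE are subunits, and DSIF, of which SPT5 is a subunit, bind RNA polymerase II shortly after it starts transcription and hold it in a paused state near the start of genes. When the polymerase is released NELF leaves, while SPT5 travels on with it through the gene. Heat shock genes are the classical example of pausing: heat shock factor 1 binds repeats of the letters GAA, called heat shock elements, before their starts and triggers release. Hspa8 and Hsp90ab1 encode the constitutive cytosolic HSP70 and HSP90 chaperones, Hsp90aa1 the more inducible HSP90, and Hspa1a and Hspa1b the strongly stress-inducible HSP70 copies. Hspd1 and Hspe1 encode the mitochondrial chaperonin and its lid.

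The sequences before the starts are shown because they carry heat shock elements, and these elements lie inside regions called in all 6 libraries. The RefSeq promoter table (GRCm38.p6, the build called mm10) was matched for 4 of the 7 genes, and promoter sequences of Hspa8, Hsp90ab1 and Hsp90aa1 are not used here. Each sequence is written 5′ to 3′, and capitals mark a pair of facing heat shock repeats, GAANNTTC or TTCNNGAA. The first, chr17:34972157-34972406 on the minus strand, and the second, chr17:34959239-34959488 on the minus strand, are the 250 bases before the starts of Hspa1a and Hspa1b. The third, chr1:55087933-55088147 on the plus strand, is the 215 bases between the start of Hspe1, which is read rightwards, and the inner of 2 annotated starts of Hspd1, which is read leftwards. This stretch lies before the inner start and inside the gene as annotated from the outer one.
Hspa1a: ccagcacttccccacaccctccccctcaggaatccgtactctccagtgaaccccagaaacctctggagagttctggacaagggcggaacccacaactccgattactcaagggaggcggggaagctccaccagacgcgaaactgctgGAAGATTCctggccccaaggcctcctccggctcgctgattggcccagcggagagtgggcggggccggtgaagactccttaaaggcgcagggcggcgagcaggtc
Hspa1b: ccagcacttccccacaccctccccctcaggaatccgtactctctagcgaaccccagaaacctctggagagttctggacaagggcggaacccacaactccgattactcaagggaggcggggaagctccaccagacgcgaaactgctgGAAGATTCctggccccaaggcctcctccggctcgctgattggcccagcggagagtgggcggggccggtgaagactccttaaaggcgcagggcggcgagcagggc
Hspd1 and Hspe1: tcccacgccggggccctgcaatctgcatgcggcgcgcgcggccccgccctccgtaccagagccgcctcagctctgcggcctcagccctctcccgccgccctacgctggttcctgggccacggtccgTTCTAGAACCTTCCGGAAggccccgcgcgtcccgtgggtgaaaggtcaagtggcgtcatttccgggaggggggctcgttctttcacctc

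Counted from 1 at the first printed base, Hspa1a and Hspa1b each had 1 pair, at positions 147 to 154, which ends 96 bases before the start. The stretch between Hspd1 and Hspe1 had 3 pairs that overlap each other, at 127 to 134, 132 to 139 and 137 to 144. Both motifs read the same on either strand and were searched in the 250 bases before each of 32851 annotated starts. Either pair was found in 12.8% of these, GAANNTTC in 6.69% and TTCNNGAA in 7.17%, and 3 or more pairs in 46 of them (0.140%). A CCAAT box (CCAAT or ATTGG on either strand, in 33.8% of all) was present in Hspa1a and Hspa1b at 184 to 188 and not in the Hspd1 and Hspe1 stretch. The GC box GGGCGG or CCGCCC (32.7% of all) had 3 matches in each Hspa1 copy and 2 between Hspd1 and Hspe1. The letters TATAAA or TTTATA (12.4% of all) were in none of the 3 sequences. These matches describe letters and not sites of binding.

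The 2 Hspa1 copies differed at 3 of these 250 bases, C44T, T47C and T249G (the Hspa1a base first), an identity of 98.8%. The longest stretch without a difference was 201 bases. The tags were 50 bp long in the NELFB:HA and NELFE libraries and 100 and 101 bp in the SPT5 libraries, so a tag from that stretch has the same letters in both genes. How such tags were placed is not given in the sources used here, and all values for Hspa1a and Hspa1b are uncertain in this respect.

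Facts of the whole libraries bear on what follows. They held 27324697 to 62312558 filtered tags, and 6978 to 11770 strong regions, which made up 1.51% to 6.08% of each list. The SPT5 libraries differed from the others in tag length, in the extension of tags (206 against 227 bp), in sharing 1 input and in the project label of the file headers. The antibody and these differences cannot be told apart in any comparison with SPT5. No pair of same-antibody lists shared a region with identical coordinates. Of 7 pluripotency genes, 5 had a strong region within 1 kb of a start in both libraries of every antibody. Among all protein-coding genes, 36.6% had one in both NELFB:HA libraries, 42.9% in both NELFE and 31.3% in both SPT5 libraries. Nanog had one only in the first NELFE and the second SPT5 library, and Esrrb in none. Neither of 2 endoderm markers was matched. Of fibroblast and mesoderm markers, 3 of 5 and 1 of 2 were matched, and none of these had such a region in any library. Of 2 neural markers, Sox1 had one in both NELFE libraries and in 4 of 6 libraries in all, and Pax6 in none.

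Presence was counted first. A strong region was held by 6 of 6 windows in both NELFE libraries and by 6 of 6 in both SPT5 libraries, beside 5.51% and 3.95% of 194449 tiles of 14 kb along the chromosomes. In NELFB:HA the count was 5 of 6, beside 4.37% of tiles, and the missing window was that of Hspa1a. All 7 genes had such a region over their annotated start in both libraries of NELFE and of SPT5. Of 17492 protein-coding genes, 42.9% and 31.3% had one within 1 kb of a start, a wider criterion. Hspd1 and Hspe1 shared 1 region in each library, so the 7 genes are not separate observations. For NELFB:HA it was 6 of 7 genes, beside 36.6%, again without Hspa1a. Its 2 NELFB:HA regions were called, but with −log10 q of 1.10 and 1.37. Among all regions of the windows, the one nearest above the threshold was over the Hspa1b start in the second NELFB:HA library (−log10 q of 2.25), and the one nearest below overlapped the far end of Hspd1 in the first SPT5 library and ran beyond it (1.60). The 62 regions that missed it had folds over input of 1.48 to 2.64, with a median of 1.76.

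**Figure D1:**
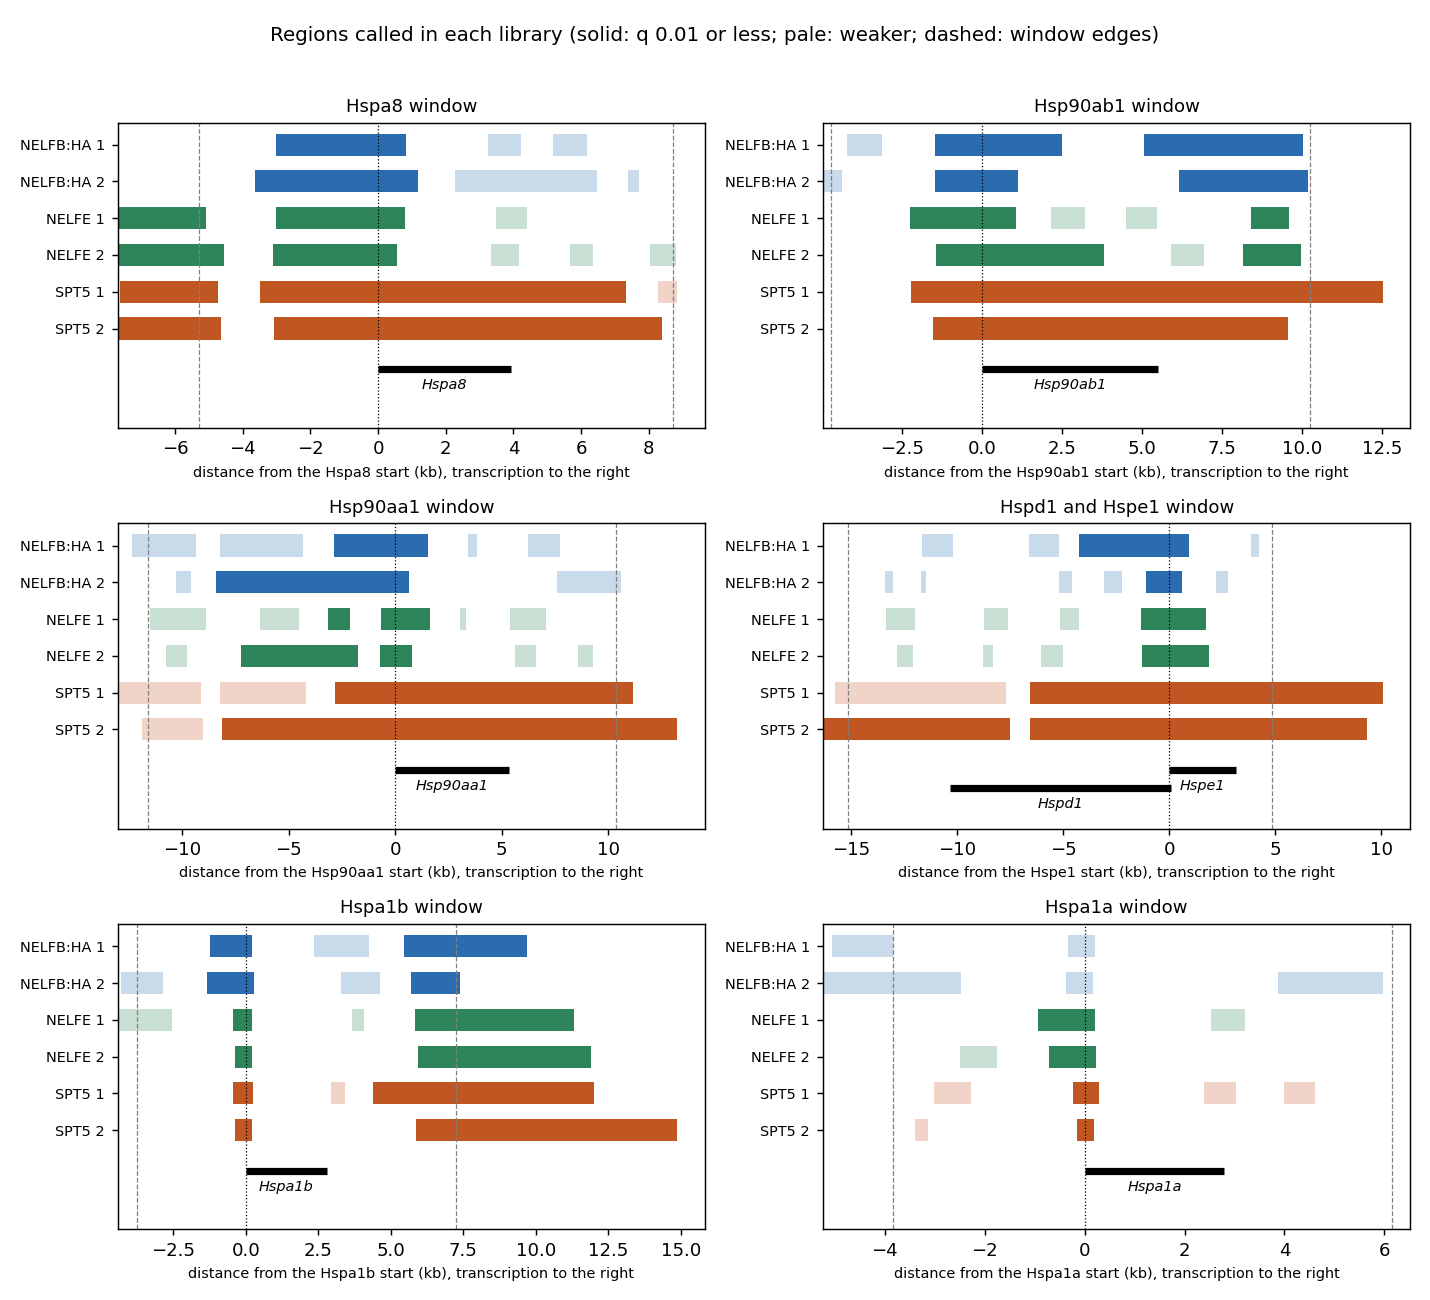
Regions called in each of the 6 libraries (bars, 1 line per library) against distance from the gene start in kb, with the annotated genes as black bars, solid colour for strong regions (q-value of at most 0.01) and pale colour for weaker regions. At Hspa8, Hsp90ab1, Hsp90aa1 and Hspe1 both SPT5 bars run past the end of the gene, and at Hspa1b and Hspa1a no bar over the start goes further than 287 bp into the gene; Hspd1 is read to the left in its panel.

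Hspa8, the constitutive HSP70, lies on chromosome 9 from 40801276 to 40805202 and is read rightwards. The NELFB:HA regions over its start ran from 40798263 to 40802106 and from 40797649 to 40802445, and the NELFE regions from 40798262 to 40802085 and from 40798176 to 40801834. All 4 began 3013 to 3627 bp before the start and ended 558 to 1169 bp inside the gene, so that most of their length lay upstream. The SPT5 regions, from 40797801 to 40808608 and from 40798196 to 40809671, began at a like distance upstream (3475 and 3080 bp) and ended 3406 and 4469 bp beyond the gene.

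In these Hspa8 regions NELFB:HA reached a fold over input, as the authors computed it, of 6.03 and 6.69, NELFE of 6.98 and 8.68 and SPT5 of 5.41 and 4.78. By pileup, the mean tag coverage of a region, they ranked 1164 and 965 in the NELFB:HA lists, 1910 and 1210 in the NELFE lists and 446 and 593 in the SPT5 lists. Hspa8 held the best-ranked region of the 6 windows in both SPT5 libraries, although these regions were 10.8 and 11.5 kb long. A separate region further upstream overlapped no annotated gene and crossed the window's edge in 4 libraries. It ran from 40793625 to 40796205 and from 40793631 to 40796721 in NELFE, and from 40793645 to 40796537 and from 40793583 to 40796648 in SPT5. Its fold was 3.72 and 4.16 in NELFE and 2.44 and 2.36 in SPT5. In NELFB:HA a region at the same place ended before the window, with a fold of 2.95 (−log10 q of 4.61) and of 2.37 (1.82, below the threshold). The snoRNA genes Snord14c, Snord14d and Snord14e lie inside Hspa8, where the SPT5 regions cover them as well.

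Hsp90ab1, the constitutive HSP90, lies on chromosome 17 from 45567778 to 45573261 and is read leftwards. The NELFB:HA regions over its start ran from 45570764 to 45574721 and from 45572136 to 45574735, and the NELFE regions from 45572189 to 45575507 and from 45569467 to 45574718. Their lengths of 3958, 2600, 3319 and 5252 bp varied as much within an antibody as between NELFB:HA and NELFE. The SPT5 regions were 14728 and 11094 bp long, from 45560747 to 45575474 and from 45563695 to 45574788, and ran 7031 and 4083 bp past the gene's end into Slc35b2. In the NELF libraries separate regions lay over Slc35b2, from 45563225 to 45568198 and from 45563064 to 45567117 in NELFB:HA and from 45563655 to 45564863 and from 45563282 to 45565123 in NELFE. The first of these also overlapped the end of Hsp90ab1, and the second overlapped Nfkbie. Signal of Hsp90ab1 and signal of Slc35b2 cannot be told apart inside the SPT5 regions, the first of which also overlapped Nfkbie. In every library the region over the Hsp90ab1 start also overlapped the annotated gene Gm35399, so its values are not those of Hsp90ab1 alone. The fold over the Hsp90ab1 start was 10.3 and 9.08 in NELFB:HA libraries, 7.76 and 8.74 in NELFE and 4.26 and 4.20 in SPT5. The ranks by pileup were 462 and 267, 771 and 618, and 1137 and 941.

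Hsp90aa1, the inducible HSP90, lies on chromosome 12 from 110691036 to 110696395, is read leftwards and is the only annotated gene of its window. Its NELFE regions held the best rank by pileup of the 6 windows in both NELFE lists, at 92 of 203679 and 17 of 217115. Their folds of 13.7 and 12.0 also came first among the windows, at ranks by fold of 131 and 440. They were also short, 2325 and 1518 bp, from 110694759 to 110697083 and from 110695611 to 110697128. The NELFB:HA regions ranked 442 and 1562 with folds of 8.28 and 4.63, and ran from 110694866 to 110699279 and from 110695759 to 110704812. The second of these was 9054 bp long and reached 8417 bp upstream, where the NELFE libraries had separate weaker regions from 110698505 to 110699549 (fold 3.17) and from 110698160 to 110703654 (fold 2.95).

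The SPT5 regions at Hsp90aa1, from 110685236 to 110699231 and from 110683142 to 110704541, were 13996 and 21400 bp long, and the second was the longest over any of the 7 starts. They ended 5800 and 7894 bp past the gene. Their folds were 3.69 and 3.26 and their ranks 2792 and 3986. A pileup averaged over a long region counts its weak flanks too, so a low rank of a long region does not say how high its peak is.

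Hspd1 (chromosome 1 from 55077833 to 55088243, read leftwards) and Hspe1 (55088148 to 55091317, read rightwards) start head to head and overlap by 96 bp, with starts for Hspd1 at 55088243 and 55087932. A single region covered the starts of both genes in every library, so values at the starts are shared and do not count as 2 observations. It ran from 55083890 to 55089098 and from 55087066 to 55088741 in NELFB:HA, from 55086826 to 55089860 and from 55086844 to 55090013 in NELFE, and from 55081562 to 55098206 and from 55081570 to 55097456 in SPT5. The 215 printed bases with 3 overlapping repeat pairs lie inside all 6. The NELF regions were 5209, 1676, 3035 and 3170 bp long, and the SPT5 regions 16645 and 15887 bp.

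The NELF folds at this shared start were 7.28 and 10.0 for NELFB:HA and 8.73 and 9.70 for NELFE, at ranks 660, 111, 284 and 822. The second NELFB:HA library held here its best-ranked region of the 6 windows. The SPT5 folds were 2.74 and 2.75, at ranks 6206 and 6256. To the right the SPT5 regions ended 6889 and 6139 bp past Hspe1, and to the left they stopped inside Hspd1. Beyond a gap, further SPT5 regions overlapped the far end of Hspd1 and ran beyond it, from 55072364 to 55080452 (−log10 q of 1.60, below the threshold) and from 55071815 to 55080628 (3.39).

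Hspa1b and Hspa1a, the stress-inducible pair, lie on chromosome 17 from 34956429 to 34959238 and from 34969359 to 34972156, both read leftwards, with starts 12.9 kb apart. All 12 regions over these 2 starts were short, 343 to 1615 bp, and ended 163 to 287 bp inside the gene. This held for SPT5 as well as for NELF. At Hspa1b the NELFB:HA regions ran from 34959006 to 34960464 and from 34958953 to 34960567, the NELFE regions from 34959033 to 34959668 and from 34959024 to 34959606, and the SPT5 regions from 34958996 to 34959662 and from 34959005 to 34959613. The folds were 2.58 and 2.85, 4.35 and 4.67, and 3.55 and 3.38, and the ranks 8005 and 11661, 6857 and 5578, and 3213 and 3692.

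At Hspa1a the regions ran from 34971954 to 34972495 and from 34971993 to 34972535 in NELFB:HA, from 34971940 to 34973089 and from 34971938 to 34972878 in NELFE, and from 34971869 to 34972386 and from 34971970 to 34972312 in SPT5. Their folds were 2.24 and 2.64, 3.39 and 3.13, and 2.78 and 2.82, at ranks 12381 and 14061, 7975 and 10743, and 7278 and 5688. The printed repeat pair of either gene lies inside its regions in every library. Hspa1a held the lowest-ranked window in 5 of 6 libraries, and in the second SPT5 library that place fell to Hspd1 and Hspe1. The Hspa1a regions of the NELFE libraries also overlapped Hspa1l, an HSP70 gene with a gap of 546 bp to Hspa1a, and those of the other libraries ended before it.

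The strongest region of the Hspa1b window was not that of Hspa1b. In every library it lay over the non-coding gene 1110038B12Rik, a snoRNA host, with folds of 4.97 and 7.31 in NELFB:HA, 6.50 and 5.13 in NELFE and 4.28 and 4.17 in SPT5. It began past the 3′ end of Hspa1b and ran out of the window. Window totals for Hspa1b therefore include this neighbour.

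**Figure D2:**
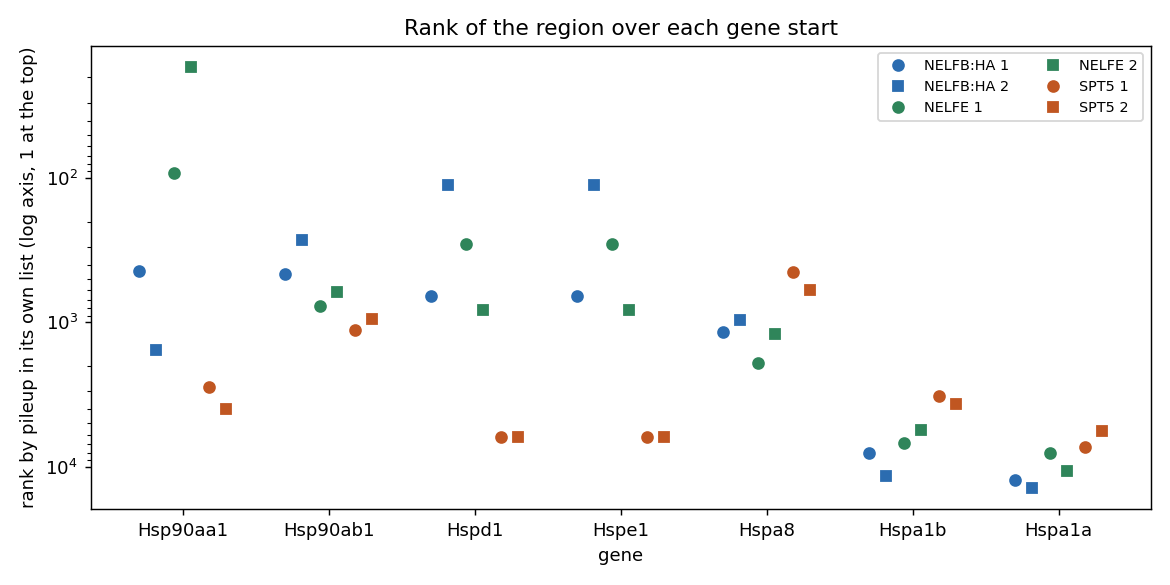
Rank by pileup of the region over each gene start within its own library's list (log axis, rank 1 at the top, 1 point per library, Hspd1 and Hspe1 sharing their points). NELFE points are highest at Hsp90aa1, at ranks 92 and 17, SPT5 points are highest at Hspa8, at 446 and 593, and all points of Hspa1a and Hspa1b lie at rank 3213 or below. The SPT5 points of Hspd1 with Hspe1, at 6206 and 6256, lie lower than those of Hspa1b.

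Within each list the order of the genes can be read from this plot of ranks, while ranks in lists of different lengths show no change between antibodies. As a percentile among the list's strong regions, the Hspa8 start stood at 88.7 and 88.5 in NELFB:HA, 83.1 and 89.8 in NELFE and 94.0 and 93.0 in SPT5. Hsp90aa1 stood at 95.7 and 81.4, 99.2 and 99.9, and 61.4 and 53.2. In 3 of 4 NELF libraries the best-ranked window by pileup was that of Hsp90aa1, and in 2 of 4 by fold or by p-value. The Hspa1a and Hspa1b starts did not pass a percentile of 56.6 in any library. They were not the lowest throughout. In SPT5 the shared start of Hspd1 and Hspe1 stood at 19.5 and 28.4, below Hspa1b at 55.7 and 56.6. In the second SPT5 library Hsp90aa1, at 53.2, was below Hspa1b as well.

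Length was then compared between antibodies, as the bases of each window covered by strong regions. The measure is in bases and not in units of pileup, but the regions and their q-values come from each list's own peak calling. It can therefore depend on depth and on scaling, and this was not tested. The SPT5 libraries were the extremes of the 6, with 27324697 and 62312558 filtered tags. At Hspa8 the covered length was 3.84 and 4.80 kb in NELFB:HA, 4.03 and 4.38 kb in NELFE and 11.3 and 12.1 kb in SPT5. Both SPT5 libraries lay above all 4 NELF libraries. The SPT5 mean exceeded that of NELFB:HA by 7.42 kb (pooled SD 0.615 kb) and that of NELFE by 7.53 kb (pooled SD 0.427 kb). The excess over NELFB:HA was 4.41 kb with no q-value threshold and 4.93 kb over the gene and 2 kb on each side.

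At Hsp90ab1 it was 8.93 and 6.65 kb in NELFB:HA, 4.53 and 7.09 kb in NELFE and 12.5 and 11.1 kb in SPT5, where the bases over Slc35b2 are included. The SPT5 libraries were again above all others, by 3.99 kb (pooled SD 1.33 kb) over NELFB:HA and by 5.97 kb (pooled SD 1.46 kb) over NELFE in the mean. At Hsp90aa1 the values were 4.41 and 9.05 kb, 3.37 and 7.01 kb, and 13.2 and 18.5 kb. The differences there were 9.15 kb (pooled SD 3.53 kb) and 10.7 kb (pooled SD 3.22 kb), with a wide spread inside every antibody and no overlap between SPT5 and NELF. At Hspd1 and Hspe1 the values were 5.21 and 1.68 kb, 3.04 and 3.17 kb, and 11.4 and 19.1 kb. The SPT5 excess of 11.8 kb (pooled SD 4.20 kb) over NELFB:HA and of 12.1 kb (pooled SD 3.81 kb) over NELFE was seen in both SPT5 libraries, which themselves differed. It rested on the threshold and on the library: at a q-value of 1e-05 it was 2.27 and 2.61 kb, and without replicate 2 the excess over NELFB:HA was 6.23 kb.

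The Hspa1 windows did not follow this order. At Hspa1a the covered length was 0 and 0 kb in NELFB:HA, 1.15 and 0.941 kb in NELFE and 0.518 and 0.343 kb in SPT5. NELFE was here above both others, by 1.05 kb over NELFB:HA (a difference of −1.05 kb for NELFB:HA minus NELFE, pooled SD 0.105 kb) and by a difference of −0.615 kb for SPT5 minus NELFE (pooled SD 0.136 kb). SPT5 was above NELFB:HA by 0.431 kb (pooled SD 0.0875 kb), a difference that became 0 kb at a q-value of 1e-05 and −0.706 kb with no threshold. Without a threshold, NELFB:HA minus NELFE turned to 0.524 kb and SPT5 minus NELFE was −0.182 kb. In the Hspa1b window, with its neighbour, the values were 3.22 and 3.17 kb, 2.03 and 1.89 kb, and 3.52 and 1.97 kb. Both NELFB:HA libraries lay above both NELFE libraries, by 1.24 kb in the mean (pooled SD 0.0743 kb), and SPT5 overlapped each of them. The regions over the Hspa1b start alone averaged 1.54 kb in NELFB:HA and 0.610 kb in NELFE.

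**Figure D3:**
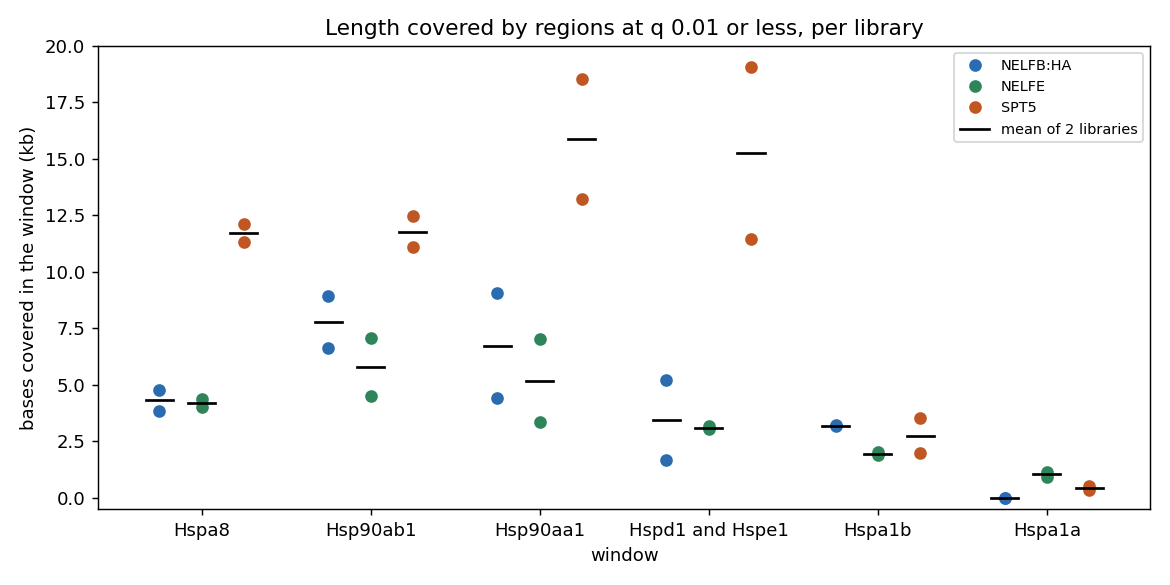
Bases covered by strong regions (q-value of at most 0.01) in each window, in kb, with 1 point per library, colours for the antibodies and black bars for the mean of 2 libraries. The SPT5 points lie above all NELF points at Hspa8, Hsp90ab1, Hsp90aa1 and Hspd1 with Hspe1, and in the Hspa1a window all points are at 1.15 kb or less.

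Counted over windows, both SPT5 libraries covered more than either NELFB:HA library in 5 of 6, beside 17.9% of 15890 tiles with a region at this threshold in any library. Both covered more than either NELFE library in 4 of 6, beside 20.2% of tiles. Only the 7690 tiles with a strong region in both SPT5 libraries could meet either criterion, while all 6 windows held such regions. The shares of tiles are therefore lower than a like comparison would give. Both NELFB:HA libraries covered more than either NELFE library in 1 of 6, the Hspa1b window, beside 12.6% of tiles. This could be met only by the 8491 tiles, and the 5 windows, with a strong region in both NELFB:HA libraries. The NELFB:HA and NELFE libraries overlapped in 4 of 6 windows. The two-sided exact permutation test, run for 6 windows and 3 antibody pairs, gave p from 0.333 to 1 (adjusted p from 0.5 to 1 over 18 tests), and 0.333 is the lowest that 2 libraries against 2 allow. None of these differences can therefore pass this test, whatever its size.

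The share of each annotated gene inside regions at this threshold showed the same split among the 7 genes. Both SPT5 libraries covered 100% of Hspa8, Hsp90ab1, Hsp90aa1 and Hspe1, and 64.2% and 91.0% of Hspd1. Of Hspa1b they covered 8.65% and 8.33%, and of Hspa1a 10.3% and 6.68%. The NELF libraries covered 14.2% to 29.8% of Hspa8 and 11.9% to 30.5% of Hsp90aa1. At Hsp90ab1 they ranged from 19.6% to 69.2%, at Hspd1 from 11.3% to 41.8% and at Hspe1 from 18.7% to 58.9%. At Hspa1b and Hspa1a they reached at most 10.2%, and both NELFB:HA libraries had 0% of Hspa1a.

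**Figure D4:**
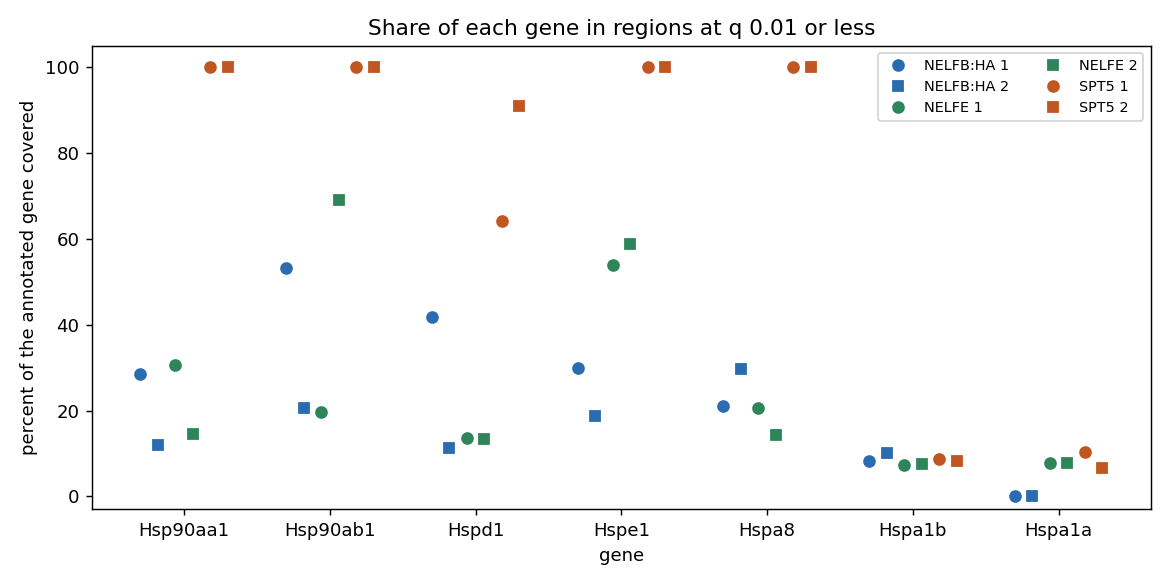
Percent of each annotated gene covered by strong regions (q-value of at most 0.01), with 1 point per library. SPT5 points are at 100% for 4 genes and at 64.2% and 91.0% for Hspd1, while all points of Hspa1b and Hspa1a are at 10.3% or below.

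With a threshold of 50% of the gene, chosen after these values were seen, 5 of 7 genes were covered in both SPT5 libraries, beside 7.5% of 4919 protein-coding genes of the same range of lengths (2798 to 10411 bp). In both NELFE libraries it was 1 of 7, Hspe1, beside 1.36%, and in both NELFB:HA libraries 0 of 7, beside 1.85%. Hspd1 and Hspe1 are both among the 5 genes covered in SPT5, although 1 region overlapped both in each library, so they are not separate observations. Hspa1a and Hspa1b, of 2798 and 2810 bp, are the shortest of the 7, and the 2 with the smallest share covered by SPT5. Hspe1, of 3170 bp, was covered at 100% in both SPT5 libraries, by the long region it shares with Hspd1. Whether gene length bears on these shares was not tested. The unknown placement of tags common to the Hspa1 copies limits their shares too, and its effect on them was not tested.

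Other chaperone genes were read at their starts from a list of 44, of which 39 were matched. In both libraries 35 had a strong region in NELFB:HA, 38 in NELFE and 36 in SPT5, beside the 36.6%, 42.9% and 31.3% of all protein-coding genes given above. All 6 HSP90 cochaperones, all 7 matched genes of the cytosolic chaperonin, all 6 of the endoplasmic reticulum and all 3 mitochondrial genes had one with every antibody. Of 14 matched genes of the cytosolic HSP70 system it was 12 in NELFB:HA, 13 in NELFE and 13 in SPT5. For NELFE and SPT5 these counts, and those over the 39, include Hspa1l. Its regions were those over the Hspa1a start, already counted above, and in SPT5 they did not reach Hspa1l itself. SPT5 covered at least 50% of the gene in both libraries in 8 of the 39, beside 3.51% of 16771 protein-coding genes of their range of lengths (1645 to 87397 bp).

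The highest mean percentiles over the 6 libraries were those of Cct7 (94.2), a chaperonin subunit, Dnajb1 (92.5), an HSP40 partner of HSP70, and Canx (92.1), a lectin chaperone of the endoplasmic reticulum. The lowest were those of Hspb8 (2.43), a small heat shock protein, Hspa4l (2.71), an HSP110 relative, and Hsf2 (14.1), a heat shock factor, where a library without such a region counts as 0. The median of the 39 was 75.1.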

How the data were processed

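Chromatin of control E14 cells was measured with 3 antibodies in 2 libraries each, grouped by sample title. The submitters' processing notes name Bowtie2, deepTools, MACS2 and mm10. Per the file headers, the authors called broad peaks with MACS 2.1.1.20160309 for each library against an input, without pooling, at a p-value of 0.01 for strong and 0.1 for linking regions. The deposited pileup signal is a mean coverage over the region, and the deposited fold enrichment is a ratio to the input. Significance is deposited as −log10 p-value and as −log10 q-value for each region. Fold, pileup and q are the authors'. Fold and pileup were ranked only within a list, and percentiles by pileup were averaged over the 6 libraries for the other chaperones. The q-value threshold was applied to each list and set the covered lengths that were compared between antibodies. Depth was read from the headers, and no depth per region can be given beyond the pileup.

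Regions were joined to windows and genes by at least 1 bp, with the GRCm38.p6 RefSeq gene table. The strand of Hspa8, Hsp90ab1 and Hsp90aa1 was taken from general knowledge. Covered length was compared by difference of means, pooled SD and a two-sided exact permutation test with Benjamini-Hochberg adjustment, in Python 3.11.15 with pandas 2.3.3, numpy 2.4.6 and scipy 1.17.1, and the overlap code was tested on simulated data. All 7 genes are named, and of the other chaperones the 3 highest and 3 lowest. The members and lists were chosen with earlier results of these data known. Alternatives were other q-values, whole regions, at least 50% overlap, other rankings, each replicate left out and a replicate block.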

Additional observations from a re-analysis of the deposited data

How the results depend on the processing

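For 64 results 242 alternatives were run. Of 90 differences in covered length with both replicates, 7 changed sign, 1 fell to 0 and 82 kept their direction, some at another size. These 82 include the replicate block for each of 6 windows and 3 antibody pairs, where the difference stays as it is and no change was possible. The exact test could call none of the 90 differences. Of 36 with a replicate left out, 4 changed sign, and against the pooled SD 8 were labelled as moved and 24 as the same. At Hspa1a, SPT5 minus NELFB:HA and NELFB:HA minus NELFE moved by just the pooled SD with either replicate left out. These ties fell in both the 8 and the 24. Of 44 counts 6 moved by over 1.5 times, and all 72 ranks differed by fold or p-value, by which Hspa1a was the lowest window in 4 and 6 of 6 libraries. The causes were not tested. The windows where NELFB:HA covered more than NELFE (1 of 6) became 2 with no q-value threshold, 0 with whole regions, 3 with the genes and 2 kb on each side (an alternative added after seeing the data), 2 with the replicate block and 3 to 4 when a replicate was left out. SPT5 minus NELFB:HA turned to 1.09 kb (q-value of 1e-05) and 4.46 kb (whole regions) in the Hspa1b window, where leaving out a replicate gave −1.19 to 0.299 kb, and to −0.706 kb at Hspa1a with no q-value threshold. NELFB:HA minus NELFE turned to −2.26 kb at Hspa8 and −1.84 kb at Hspa1b with whole regions, to −0.301 kb at Hspa1b at a q-value of 1e-05, and to 0.524 kb at Hspa1a with no threshold. Leaving out a replicate gave −0.186 to 0.416 kb at Hspa8, −0.44 to 4.40 kb at Hsp90ab1 and −1.49 to 2.17 kb at Hspd1 and Hspe1. The replicate block leaves the mean differences as they are, and counting windows where both same-numbered pairs agree gave 5 for SPT5 above NELFB:HA and 5 for SPT5 above NELFE (4 without it). Same-numbered libraries did not deviate together from tile to tile (Pearson r of −0.0282, 0.00195 and −0.0142 over 6409 tiles, 1 value per antibody pair). A shift common to all tiles would not show in this correlation. Whether same-numbered libraries shared a culture or a preparation therefore stays unknown. For both NELF antibodies the replicate numbers inside the deposited lists are not those of the titles, though their order is the same, so the pairs with SPT5 rest on the titles. The exact test with 2 libraries per antibody cannot fall below 0.333, and no stability follows from it.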
